A study of Mus musculus with 12 samples.

Results

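The neonatal arm of the experiment held 6 of the 12 RNA libraries of the series, chosen by their labels alone: 3 from newborn mice that aspirated Escherichia coli (E. coli) and 3 from newborn mice that aspirated phosphate-buffered saline (PBS). All mice were C57BL/6NJ, of both sexes, with no transgene or deletion named in the labels. The neonates aspirated 2800000 colony-forming units or PBS on day 5 of life, and lung CD4+ T cells were sorted 48 h later, after enrichment on magnetic beads. Each library was a pool of 3 neonatal mice, so n = 3 counts pools. The other 6 libraries came from juvenile mice treated in the same way on day 15, with 2 mice in each pool, and serve here as another set of values for the same genes. No source used here gives the sort gate apart from CD4.

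CD4+ T cells are the helper lineage of T lymphocytes, which recognise peptide on MHC class II and direct other cells through secreted cytokines. Many cytokines bound at their surface act through JAK kinases and STAT transcription factors, and STAT factors in turn induce inhibitors such as the SOCS proteins that limit the signal. In the lung, helper T cells that make IL-17 and IL-22 act on epithelium to recruit neutrophils and to release antimicrobial proteins, and in newborns most CD4+ T cells have only recently left the thymus.

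The label was checked on genes that define the lineage. Cd4 stood at 1222, 1131 and 1047 CPM (counts scaled to the total of each library) in PBS libraries 1, 2 and 3 and at 1104, 1074 and 1079.6 CPM in E. coli libraries 1, 2 and 3, and levels are given in this order throughout. Cd3e, a chain of the T cell receptor complex, stood at 1752, 1655 and 1421 and 1673, 1506 and 1572 CPM. Neither gene was called (adjusted p = 0.833 and 0.957), and both were high in every library. Total counts ran from 6035445 to 7961781 in the neonatal libraries, where 3 counts, the most that a count of 0 allows, correspond to 0.374 to 0.490 CPM. Among the neonates, PBS library 1 stood apart in Rag1, a recombinase of developing T cells, which read 344, 76 and 47.5 CPM after PBS and 0.255, 42.8 and 8.49 CPM after E. coli, and in the summed CD8 T cell markers, at 135, 41 and 41.7 and 38.9, 33.7 and 29.1 CPM. E. coli library 2 stood apart in the summed neutrophil markers, at 3.42, 0.833 and 0.980 CPM after PBS and 11, 65.1 and 22.5 CPM after E. coli.

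The neonatal response held more rises than falls. Of 11062 genes tested, 116 rose (1.05%) and 16 fell (0.145%) at an adjusted p under 0.05 in edgeR's quasi-likelihood test with Benjamini-Hochberg adjustment. Among the rises 73 were at least 2-fold, against 2 of the falls, and the median change was 1.20 on the log2 scale for the rises (1.19 with the 6 genes at 0 counts after PBS placed at their bound) and -0.59 for the falls, beside -0.0027 for all genes tested. In all 132 called genes the 3 E. coli libraries lay beyond the 3 PBS libraries, a pattern that 11.2% of all tested genes showed in the direction of a rise and 10.6% in that of a fall. Of the 116 rises 51 began under a mean of 10 CPM after PBS, 6 of them at 0 counts in all PBS libraries, and the other 65 began higher. Log2 changes below are E. coli over PBS ± SE. This SE was derived from the test, as the absolute log2 change divided by the square root of the F statistic. It is only rough for genes with few counts. In bulk RNA of sorted cells, a change in the number of cells that carry a transcript and a change in RNA per cell cannot be told apart.

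**Figure D1:**
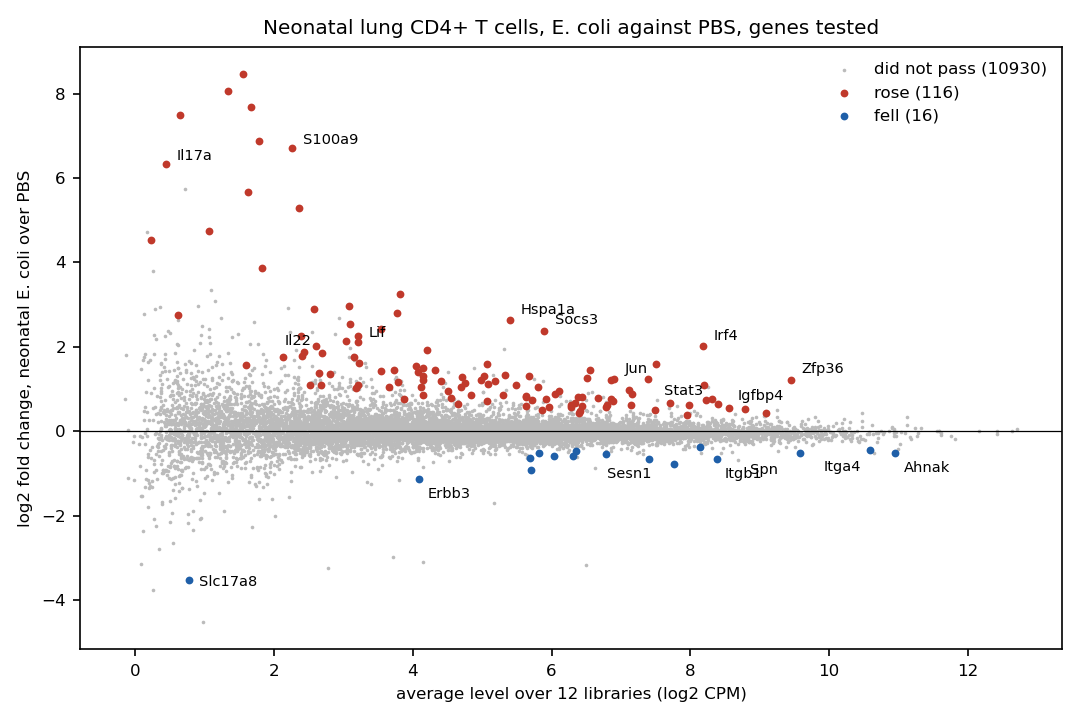
Log2 fold change of neonatal E. coli over PBS (vertical axis) against the average level over 12 libraries in log2 CPM (horizontal axis) for 11062 genes, with the 116 rises in red, the 16 falls in blue and the genes that did not pass in grey. Most rises of more than 4 on the log2 scale lie below an average of 3 log2 CPM, while the falls, apart from Slc17a8 and Erbb3, lie within 1 unit of 0.

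The number of calls depended on single libraries. Leaving out PBS library 1 left 54 rises and 2 falls, PBS library 2 left 52 and 3, and E. coli library 2 left 61 and 1. Leaving out PBS library 3 left 81 rises and 8 falls, E. coli library 1 left 101 and 6, and E. coli library 3 left 101 and 25. Of the original calls, 40 rises and 1 fall (Spn) passed in all 6 of these fits. With both libraries that stood apart left out together, an alternative chosen after seeing the data, 9 rises and 0 falls passed (unadjusted p under 0.05: 522 higher and 257 lower). These were Socs3, Lif, Irf4, Bcl3, Fgl2, Gem, Icam1, Rgs1 and Map3k8. With the summed neutrophil, monocyte and macrophage markers as a covariate, 7 rises and 0 falls passed (unadjusted: 507 higher and 292 lower), namely Socs3, Lif, Irf4, Bcl3, Gem, Icam1 and Rgs1.

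Genes of cytokine signalling and its feedback formed the first group, with 9 rises. Of 24 members of a list of JAK-STAT feedback genes and targets, 4 rose, 0 fell and 20 did not pass (median log2 change 0.31). Socs3, an inhibitor of receptors of the IL-6 family, stood at 23.1, 20.1 and 14.4 CPM after PBS and 105, 109 and 87.7 CPM after E. coli. Every E. coli library was several times above every PBS library, and the rise was 2.38 ± 0.22 (adjusted p = 0.000222). Cish, a SOCS family inhibitor induced by STAT5, went from 19.2, 22.2 and 20.1 to 36.1, 41.8 and 55.1 CPM (1.11 ± 0.17, adjusted p = 0.00362). Stat3 itself, the STAT factor downstream of IL-6, IL-21 and IL-23, went from 257, 286 and 249.6 to 410.2, 461 and 374 CPM (0.65 ± 0.10, adjusted p = 0.00507). It was the only one of 11 JAK kinases and STAT factors to pass. The transcriptional coregulator Sbno2 went from 15, 17.8 and 12.1 to 37.1, 41.3 and 30.8 CPM (1.28 ± 0.17, adjusted p = 0.00185).

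Ligand and receptor genes of the same group rose from lower levels. Lif, a secreted cytokine of the IL-6 family, stood at 3.27, 2.64 and 5.06 CPM after PBS and 15.7, 17 and 14.8 CPM after E. coli, with the E. coli libraries close to each other (2.12 ± 0.23, adjusted p = 0.000263). Receptor chains rose in 4 of 33 cases, with 29 that did not pass. Il1r1, the signalling receptor for IL-1, went from 11.7, 4.58 and 14.7 to 33.6, 25.3 and 30.4 CPM (1.54 ± 0.31, adjusted p = 0.022). The IL-21 receptor gene Il21r went from 61.7, 76 and 59.9 to 86.2, 109 and 103 CPM (0.59 ± 0.12, adjusted p = 0.0217). The shared beta chain of the receptors for IL-3, IL-5 and GM-CSF, Csf2rb, and its neighbouring copy Csf2rb2 rose by 1.14 and 1.19 on the log2 scale (adjusted p = 0.0146 and 0.00705). These genes are near-identical, so reads may be divided between them. Socs3, Cish, Stat3, Sbno2 and Lif passed in every fit without 1 library. The other 4 lost the call in some: the adjusted p reached 0.0576 without PBS library 2 for Csf2rb2, 0.0844 without PBS library 1 for Csf2rb, 0.130 without E. coli library 2 for Il21r and 0.0794 without PBS library 1 for Il1r1.

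Promoter letters are shown because STAT factors, which act below many cytokine receptors, bind a known motif. Windows of 300 bases around the RefSeq start (build GRCm38.p6) were found for 87 of 116 rises and 14 of 16 falls. The palindromic STAT motif TTCNNNGAA, searched on both strands, occurred in 13 of the 87 windows of rises (14.9%), 0 of the 14 windows of falls, 8.31% of 8324 windows of tested genes and 9.55% of all 27025 windows. Of the 13 rises with a match, Socs3, Cish, Icam1, Sbno2, Fgl2 and Sgk1 passed in every fit without 1 library, and the first 3 are shown as examples, chosen after their values were seen. Matches lay 154 to 146 bases before the RefSeq start of Socs3, at bases 1 to 9 and 12 to 20 after the start of Cish, and 42 to 34 bases before that of Icam1. The printed stretches of Socs3 and Cish lie inside the genes as GENCODE M21 places them, so they may be transcribed. Capitals mark the matches.
Socs3 (chr11:117969502-117969531, minus strand): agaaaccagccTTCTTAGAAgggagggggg
Cish (chr9:107296652-107296681, plus strand): cccagttTTCCTGGAAagTTCTTGGAAatc
Icam1 (chr9:21015840-21015939, plus strand): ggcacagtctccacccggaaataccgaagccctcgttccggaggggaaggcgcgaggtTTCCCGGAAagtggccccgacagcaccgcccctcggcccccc
A match is a run of letters and not a measured binding site.

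Transcription factors formed a group of their own, with 17 rises. Of 31 factors known to be induced through antigen or cytokine receptors, 7 rose, 0 fell and 24 did not pass (median 0.39). Irf4, which pairs with Batf on DNA during helper T cell differentiation, stood at 117, 109.7 and 108 CPM after PBS and 507, 531 and 320.0 CPM after E. coli. E. coli library 3 was the lowest of the treated libraries and still well above the tight PBS group (2.02 ± 0.21, adjusted p = 0.000263). Batf went from 17.4, 19.2 and 16.2 to 38.8, 41.1 and 29.8 CPM (1.06 ± 0.15, adjusted p = 0.003). Bhlhe40, a regulator of cytokine production, went from 62.3, 57.5 and 67.6 to 119, 158 and 158 CPM (1.21 ± 0.17, adjusted p = 0.003). The aryl hydrocarbon receptor gene Ahr, needed for IL-22 production in helper T cells, went from 44, 42.8 and 40.8 to 67.3, 93.6 and 73.9 CPM (0.88 ± 0.15, adjusted p = 0.00689). Maf, which promotes IL-10 and IL-21, rose less, from 47.1, 49.4 and 47.9 to 60.5, 81.9 and 80.0 CPM (0.62 ± 0.13, adjusted p = 0.0231).

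Growth and immediate early factors were also among these rises. Mxd1, a partner of Max that opposes Myc, went from 144, 173 and 125 to 279, 369.6 and 304 CPM (1.11 ± 0.16, adjusted p = 0.003), and Myc went from 84.2, 74.4 and 88 to 136, 136 and 131 CPM (0.71 ± 0.12, adjusted p = 0.00705). Jun, a subunit of AP-1, went from 75.5, 57.4 and 48.3 to 144, 135 and 146 CPM (1.23 ± 0.21, adjusted p = 0.00705). Jun was the only one of 14 AP-1 factors to pass, although all 14 had a fitted change above 0 (median 0.43). Fosl2, at 227, 359 and 171 and 481, 607 and 487 CPM, did not pass (adjusted p = 0.058), nor did Fos (0.09). Id2, Irf1, Xbp1, Etv6, Zfp281, Skil, Csrnp1, Ddit3 and Dtx4 rose by 0.44 (Xbp1) to 1.43 (Dtx4). Irf4, Batf, Bhlhe40, Ahr, Mxd1, Skil and Dtx4 passed in every fit without 1 library. The other 10 did not, with largest adjusted p-values from 0.0512 (Jun without PBS library 2) to 0.240.

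Regulators and targets of NF-kB, the factor family activated by IL-1, TNF and bacterial products, gave 6 rises among 36 listed genes, with 0 falls and 30 that did not pass (median 0.29). Bcl3, Nfkbiz and Nfkbid are nuclear proteins of the IkB family, which steer NF-kB at its target genes. Bcl3 stood at 14.3, 19.9 and 14.4 CPM after PBS and 46.7, 58.5 and 41 CPM after E. coli (1.59 ± 0.17, adjusted p = 0.000263). Nfkbiz, required for IL-17 production, went from 199, 228 and 189 to 331, 361 and 350.3 CPM (0.76 ± 0.13, adjusted p = 0.00705), and Nfkbid from 13.2, 15.3 and 16 to 21.1, 27.8 and 28.6 CPM (0.80 ± 0.17, adjusted p = 0.0282). The treated libraries of each lay above the PBS libraries, by the widest margin for Bcl3. Icam1, the adhesion ligand of the integrin LFA-1, went from 22.3, 23.2 and 21.2 to 59.7, 62.8 and 43.2 CPM (1.31 ± 0.13, adjusted p = 0.000263). The kinase gene Map3k8, upstream of ERK, went from 21.9, 21.4 and 20.3 to 44.5, 55 and 39 CPM (1.13 ± 0.14, adjusted p = 0.00112). Birc3, a survival factor of the TNF receptor complex, rose by 0.38, while Tnfaip3 and Nfkbia, inhibitors often induced by NF-kB, did not pass (822, 909 and 725 against 763, 915 and 954 CPM for Tnfaip3, adjusted p = 0.848). Bcl3, Icam1 and Map3k8 passed in every fit without 1 library, and the adjusted p reached 0.0527 without PBS library 1 for Nfkbiz, 0.214 without E. coli library 2 for Birc3 and 0.150 without PBS library 1 for Nfkbid. Matches to the NF-kB consensus occurred in 15 of 87 windows of rises (17.2%), 12.4% of the windows of tested genes and 9.55% of all windows. The match of Bcl3, at bases 3 to 12 after the RefSeq start, is shown in capitals.
Bcl3 (chr7:19822736-19822765, minus strand): agtcggcggcagGGGAAGTCCCgctgcccg

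A further 11 rises encode regulators of signalling, growth and mRNA decay. Zfp36, which marks cytokine mRNA for decay, stood at 436, 305 and 317 CPM after PBS and 757, 829 and 885 CPM after E. coli (1.22 ± 0.21, adjusted p = 0.0079). Rgs1, a regulator of chemokine receptor G proteins, went from 51.3, 50.4 and 64.2 to 111, 134 and 149 CPM (1.25 ± 0.14, adjusted p = 0.000443). The small GTPase gene Gem went from 23.9, 28.3 and 19.4 to 56.2, 69.6 and 55 CPM (1.33 ± 0.15, adjusted p = 0.000263). In each, the lowest treated library stood clear of the highest PBS library. Cdkn1a, the cyclin-dependent kinase inhibitor p21, went from 6.99, 8.06 and 4.41 to 16.3, 18.3 and 18.9 CPM (1.45 ± 0.21, adjusted p = 0.003), and Sgk1, a salt- and cytokine-responsive kinase, from 46.8, 52.4 and 44.9 to 107, 95.5 and 78.3 CPM (0.96 ± 0.15, adjusted p = 0.00508). Gadd45g, a growth arrest gene, began near the floor at 2.08, 0.417 and 1.8 CPM and reached 8.04, 7.48 and 4.75 CPM. Spry2, Samsn1, Ptp4a1, Tiparp and Pmepa1 completed the group, with rises from 0.58 (Tiparp) to 1.10 (Spry2). Rgs1, Gem, Sgk1 and Cdkn1a passed in every fit without 1 library, and the other 7 did not, with largest adjusted p-values from 0.0525 to 0.214. Of 24 genes of MAP kinase feedback, 2 rose (Zfp36 and Spry2), 0 fell and 22 did not pass.

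**Figure D2:**
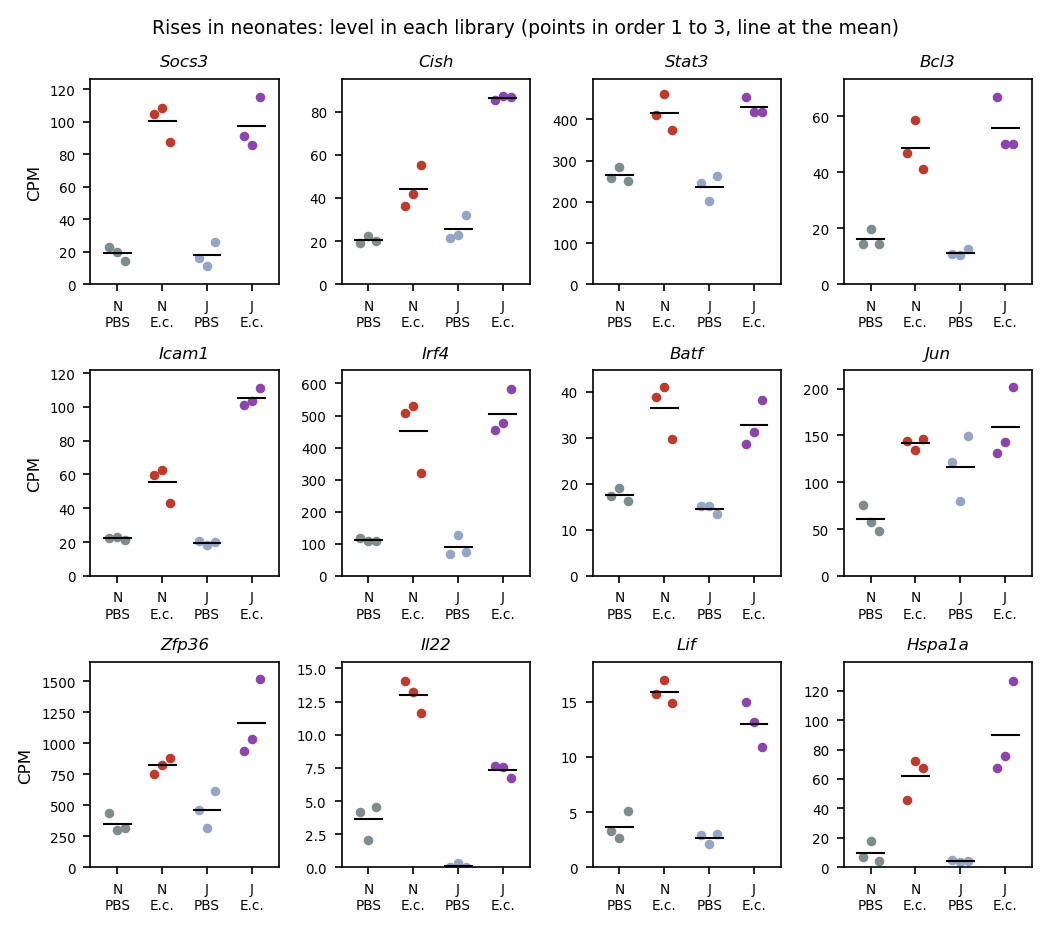
Level in CPM of 12 genes that rose in neonates, 1 point for each library and a line at the group mean, with neonatal (N) and juvenile (J) groups after PBS and after E. coli (E.c.). In every panel the 3 neonatal E. coli points lie above the 3 neonatal PBS points, and juvenile levels of Jun overlap between treatments.

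Among secreted effectors of lymphocytes 3 rose. Il17a was at 0 counts in all PBS libraries and at 1.02, 1.99 and 1.15 CPM after E. coli, from 32 counts in all, at least 3.08-fold above the PBS floor of 3 counts per library (adjusted p = 0.0173). Il22 was already present after PBS, at 4.16, 2.08 and 4.57 CPM, and reached 14, 13.2 and 11.7 CPM after E. coli (1.86 ± 0.30, adjusted p = 0.00508). The chemokine gene Xcl1, a ligand for cross-presenting dendritic cells, went from 1.04, 0.556 and 1.8 to 6.51, 3.37 and 3.74 CPM (2.02 ± 0.40, adjusted p = 0.0186). Il22 passed in every fit without 1 library, while the adjusted p reached 0.0859 without E. coli library 2 for Il17a and 0.118 without PBS library 2 for Xcl1. Fitted on the neonatal libraries alone, Il17a was below the filter on counts and had no test. Of 29 listed T cell cytokines and chemokines, 4 rose (these and Lif), 0 fell and 25 did not pass. Of 18 Th17 genes 9 rose and 0 fell (median 0.77), and the rises were Il17a, Il22, Il1r1, Irf4, Batf, Stat3, Ahr, Maf and Nfkbiz. The list was drawn up with earlier results of these data known, so its count is a description.

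Other cells can make IL-17 and IL-22, and their markers were measured beside these rises. Of 15 listed markers of gamma-delta and NKT cells, 7 genes were matched in the counts, so their sum covers only part of the list. They summed to 18, 17.2 and 22.7 CPM after PBS and 31.1, 29.7 and 30.5 CPM after E. coli. Il23r made up 35.5% of the mean sum, and Il17a was the only one at 0 in all PBS libraries. The list includes Il17a and Il23r, and 3 of the 7 members were higher without overlap, a pattern that 11.2% of all tested genes showed. The 6 members tested all had a fitted change above 0, and only Il17a passed. Cd163l1, a gamma-delta T cell gene, stood at 6.25, 7.92 and 4.9 and 7.66, 7.6 and 8.64 CPM. The 17 markers of NK and innate lymphoid cells summed to 1049.9, 1154 and 1054 and 1004, 903 and 1026 CPM, most of it from Il7r, which T cells also express. Without overlap, 5 of the 17 were higher and 1 lower, beside 11.2% and 10.6% of all tested genes. Of the 13 members tested, 10 had a fitted change above 0 (median 0.41), and only Id2 passed. Of the 17, Klra4, Klra8 and Klre1 were at 0 in all PBS libraries, and 2 of these were at 0 in all E. coli libraries as well. The part of such cells in the rises of Il17a and Il22 was not tested.

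Lists of Th1, Th2 and regulatory T cell genes gave few calls. Of 18 Th1 genes 1 rose and 0 fell, while 13 had a fitted change above 0 (median 0.40). Ifng, the Th1 cytokine, stood at 3.57, 4.03 and 3.43 and 3.7, 5.61 and 6.19 CPM (adjusted p = 0.642) and Tbx21, the Th1 lineage factor, at 2.38, 3.06 and 4.74 and 4.6, 6.73 and 5.33 CPM (adjusted p = 0.252). None of 14 Th2 genes and none of 24 regulatory T cell genes passed in either direction. This is near the share of all tested genes, of which 1.05% rose and 0.145% fell. Foxp3, the factor that defines regulatory T cells, stood at 302, 319 and 309 CPM after PBS and 191, 189 and 280.0 CPM after E. coli, without overlap, and did not pass (-0.50 ± 0.18, adjusted p = 0.260). Il2ra, the high-affinity IL-2 receptor chain, overlapped between groups at 285, 283 and 313 and 186, 199 and 289.9 CPM. Ikzf2, which encodes Helios, read 491, 531 and 519 and 315, 331 and 476 CPM (adjusted p = 0.190). In these 3 genes E. coli libraries 1 and 2 were low and E. coli library 3 was nearest to the PBS libraries.

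Genes grouped as surface receptors of lymphocytes gave 9 rises, some of which other cells may express as well. Cxcr6, which positions T cells in the airways, stood at 19.5, 18.2 and 22.7 CPM after PBS and 32.2, 42.4 and 50.4 CPM after E. coli (1.05 ± 0.15, adjusted p = 0.0031). Cxcr5, the follicular homing receptor, went from 15.2, 12.6 and 13.7 to 29.7, 19.8 and 26.3 CPM (0.87 ± 0.18, adjusted p = 0.0266). The atypical chemokine receptor gene Ccrl2 rose by 1.19 ± 0.25 (adjusted p = 0.0282). Cd274, which encodes PD-L1, went from 74.2, 64.7 and 64.7 to 144, 129.5 and 100.3 CPM (0.88 ± 0.14, adjusted p = 0.00438). Pdcd1, which encodes its receptor PD-1, went from 5.65, 5.0 and 4.57 to 9.32, 11.7 and 13.4 CPM (1.17 ± 0.22, adjusted p = 0.0132). Cd274 and Pdcd1 were the 2 rises among 15 checkpoint receptors. Of 18 costimulatory receptors and of 29 T cell receptor signalling genes 0 passed. Counts of 0 in such lists are near the shares of all tested genes, of which 1.05% rose and 0.145% fell. The G protein-coupled receptor gene Gpr18 rose by 0.81 ± 0.13, and the adhesion receptor gene Gpr97 rose by 1.57 ± 0.32. Cxcr6, Cd274 and Gpr18 passed in every fit without 1 library, while the adjusted p reached 0.137 without PBS library 2 for Cxcr5, 0.103 without E. coli library 2 for Ccrl2, 0.0685 without PBS library 2 for Pdcd1 and 0.133 without E. coli library 2 for Gpr97. Activation markers that did not pass included Cd69 (114, 101 and 109 against 149.9, 128 and 149.7 CPM, adjusted p = 0.0668) and Cd44 (adjusted p = 0.131).

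Heat shock genes gave 4 rises among 23 listed chaperones, with 0 falls and 19 that did not pass. Hspa1a, an inducible HSP70, stood at 6.99, 17.6 and 4.57 CPM after PBS and 46, 72.2 and 67.5 CPM after E. coli. PBS library 2 was the highest of its group and still below the lowest treated library (2.64 ± 0.35, adjusted p = 0.00185). Its neighbour Hspa1b went from 0.297, 5.0 and 0.980 to 16.2, 22.1 and 24 CPM (3.25 ± 0.46, adjusted p = 0.003). The cochaperone genes Dnaja1 and Hsph1 rose by 0.44 ± 0.08 (adjusted p = 0.0132) and 0.51 ± 0.11 (adjusted p = 0.027). Hspa1a and Hspa1b passed in every fit without 1 library, and the adjusted p reached 0.0962 without E. coli library 2 for Dnaja1 and 0.137 without PBS library 2 for Hsph1. Hspa8, the constitutive HSP70, read 1100.5, 1185 and 1149 and 1346, 1301 and 1334 CPM and did not pass (adjusted p = 0.209). The printed promoters show how alike the pair is, since reads of near-identical copies may be split between them. Their 300-base windows differ at 4 bases, 1 of them in the 150 bases shown, and each holds the heat shock motif GAANNTTC, in capitals, 104 to 97 bases before the start.
Hspa1a (chr17:34972157-34972306, minus strand): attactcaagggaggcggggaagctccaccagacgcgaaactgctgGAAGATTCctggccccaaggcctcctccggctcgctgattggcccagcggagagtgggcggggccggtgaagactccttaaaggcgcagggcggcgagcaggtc
Hspa1b (chr17:34959239-34959388, minus strand): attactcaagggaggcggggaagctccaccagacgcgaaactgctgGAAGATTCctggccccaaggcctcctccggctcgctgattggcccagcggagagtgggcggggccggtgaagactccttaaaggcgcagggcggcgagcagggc
The motif occurred in 13 of 87 windows of rises (14.9%), 1 of 14 windows of falls, 7.22% of windows of tested genes and 9.04% of all windows.

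Metabolic and transport genes gave 12 rises. Elovl6, a fatty acid elongase, stood at 58.3, 64.3 and 58.5 CPM after PBS and 145, 209.8 and 137 CPM after E. coli (1.44 ± 0.20, adjusted p = 0.00243). Odc1, the first enzyme of polyamine synthesis, went from 88.5, 83.2 and 105 to 131, 160.3 and 135 CPM (0.63 ± 0.14, adjusted p = 0.0379). The lysosomal peptide transporter gene Slc15a3 went from 2.08, 1.81 and 4.57 to 8.42, 8.98 and 8.06 CPM (1.61 ± 0.30, adjusted p = 0.0118). The remaining 9 were Ppp1r3b, Gla, Chst11, Padi2, Slc15a4, Slc41a1, Rragd, Pde12 and Eif1a, with rises from 0.48 (Pde12) to 1.40 (Chst11). Elovl6, Ppp1r3b, Chst11 and Eif1a passed in every fit without 1 library, and the other 8 did not, with largest adjusted p-values from 0.0847 to 0.220. Of 25 glycolysis and hypoxia genes 0 passed in either direction (median 0.06), near the shares of all tested genes (1.05% rose and 0.145% fell). Hexokinase 2 (Hk2) came nearest to passing, at 8.18, 8.75 and 8.49 and 12.4, 22.8 and 13.5 CPM (adjusted p = 0.058).

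Rises with other known roles numbered 19, of which 2 are induced by interferon. Irgm2, an interferon-induced GTPase, went from 118, 137 and 128 to 224, 224 and 159 CPM (0.66 ± 0.12, adjusted p = 0.0109), and the membrane protein gene Ifitm2 rose by 1.88 ± 0.36. Only Irf1 and Irgm2 rose among 49 interferon response genes (median 0.16). Cxcl10, a chemokine induced by interferon, read 4.02, 4.58 and 4.74 and 18, 15.8 and 18.1 CPM, without overlap, and did not pass (adjusted p = 0.0521). Of the other 17, Igfbp4, a binding protein of insulin-like growth factors that is high in naive T cells, went from 319, 339 and 336 to 475, 545 and 429.9 CPM (0.55 ± 0.09, adjusted p = 0.00508). Sdc4, a heparan sulfate proteoglycan, went from 15.6, 14.7 and 21.6 to 42.9, 46.6 and 39.4 CPM (1.32 ± 0.23, adjusted p = 0.00914). Frmd4b rose by 0.63 ± 0.11 and Chad, an extracellular matrix protein gene, by 1.79 ± 0.30. The others were Dbn1, Tmem132a, Unc93b1, Plcg2, Mmp14, Litaf, Gas7, Gcc1, Grn, Fzd5, Ndrg3, Twf1 and Serpinb1a, with rises from 0.49 (Twf1) to 2.76 (Dbn1). Of these 19, Chad, Gcc1, Ndrg3, Frmd4b and Igfbp4 passed in every fit without 1 library, and the other 14 did not, with largest adjusted p-values from 0.0626 to 0.243.

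Transcripts grouped as those of neutrophils and other myeloid cells made up 26 of the 116 rises and included the largest fold changes. The grouping was made after the values were seen. Genes placed in other groups, such as Gpr97 and Csf2rb, were not checked for expression in myeloid cells, so 26 may be too few. S100a8 and S100a9, subunits of calprotectin, had 1 and 2 counts in the 3 PBS libraries together. S100a9 reached 4.08, 26.4 and 5.9 CPM after E. coli, and the ratio of summed counts was 125 (95% exact binomial interval 34.4 to 1039, counting error only). S100a8 reached 2.43, 16.3 and 4.89 CPM, with a ratio of 162 (28.7 to 6424). E. coli library 2 held by far the most of both, and without it the ratios were 49.5 (13.2 to 416) for S100a9 and 71.9 (12.4 to 2892) for S100a8. Stfa2, a stefin of neutrophils, was at 0 counts after PBS and 2.55, 12.2 and 3.6 CPM after E. coli, at least 13.6-fold above the PBS floor (at least 6.82-fold without E. coli library 2), and its family members Stfa1 and Stfa2l1 rose with it, their reads possibly shared. Lcn2, an iron-chelating antimicrobial protein, was also at 0 after PBS and read 0.638, 7.98 and 5.47 CPM after E. coli, from 5 counts in library 1, at least 10.4-fold above the floor and at least 6.77-fold without E. coli library 2. Saa3, an acute phase protein, was at 0 after PBS and read 1.79, 2.87 and 4.89 CPM after E. coli, at least 7.06-fold above the floor.

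Inflammatory mediators formed another layer of these transcripts. Il1b stood at 3.12, 1.53 and 2.29 CPM after PBS and 6.64, 15.7 and 8.21 CPM after E. coli (2.14 ± 0.39, adjusted p = 0.0106). Il1rn, the antagonist of the IL-1 receptor, went from 1.49, 0.833 and 1.8 to 4.98, 17.7 and 5.47 CPM (2.79 ± 0.59, adjusted p = 0.0287). Cxcl2, a neutrophil chemoattractant, went from 2.68, 2.22 and 1.31 to 4.98, 25.3 and 6.48 CPM (2.55 ± 0.54, adjusted p = 0.0288). Again E. coli library 2 was the highest of the treated libraries. Ptgs2, the inducible cyclooxygenase, went from 4.31, 2.64 and 2.61 to 13.3, 23.8 and 14.5 CPM (2.43 ± 0.41, adjusted p = 0.00691), and Irg1, which makes itaconate in activated macrophages, from 0.595, 0.833 and 0.490 to 3.7, 7.6 and 4.17 CPM (2.97 ± 0.51, adjusted p = 0.00705). The antibody receptor gene Fcgr2b rose by 2.26 ± 0.46, and Tgfbi, Lilrb4, Emr1 (F4/80), Fcer1g, Ms4a6d and Ptafr rose by 1.21 (Fcer1g) to 1.92 (Tgfbi). Arg1, the arginase gene of activated macrophages, went from 11.2, 8.33 and 7.19 to 25.3, 25.9 and 21.9 CPM (1.45 ± 0.23, adjusted p = 0.00508). Fgl2, like Saa3, was highest in E. coli library 3, and read 48.1, 45.9 and 94.3 CPM after E. coli against 23.2, 19.7 and 19.6 CPM after PBS. Il1a, Chi3l1, Cxcr2, Inhba and Ccl8 completed the group.

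Of all 116 rises 70 were highest in E. coli library 2, 21 in E. coli library 1 and 25 in E. coli library 3. A peak in E. coli library 2 was therefore not confined to the myeloid transcripts. Of the 26 myeloid transcripts 21 were highest in E. coli library 2, and 24 had a mean under 10 CPM after PBS. Saa3, Chi3l1, Il1a, Arg1 and Fgl2 passed in every fit without 1 library. The other 21 did not, with largest adjusted p-values from 0.0511 to 0.201. The 12 neutrophil markers ranged in sum from 0.833 to 3.42 CPM after PBS and from 11 to 65.1 CPM after E. coli, with Camp, Lcn2, Ly6g and Retnlg at 0 in all PBS libraries. Of these 4, 1 was at 0 in all E. coli libraries as well. Without overlap, 7 of the 12 were higher, as were 11.2% of all tested genes, but only 5 of the 12 had enough counts to be tested. The 20 matched genes of the inflammatory myeloid list summed to 16.8, 11.4 and 13.6 and 47.9, 128 and 63.9 CPM, with Cxcl3, Il6 and Saa3 at 0 after PBS. The 25 monocyte and macrophage markers overlapped in sum, at 496, 298 and 343 and 435, 754 and 518 CPM, led by Ccr2 and Lyz2. Lyz2 itself read 114, 57.4 and 72 and 74.5, 117 and 70.1 CPM (adjusted p = 0.949). Mast cell, basophil and eosinophil markers summed to 2.68, 5.0 and 4.57 and 19.9, 10.3 and 12.8 CPM, and lung epithelial markers overlapped at 91, 53.2 and 98.5 and 66.9, 180.4 and 119 CPM. The 26 transcripts include members of these marker lists, and the part of other cells in the sorted samples in these rises was not tested. In the fit with the neutrophil, monocyte and macrophage covariate, 0 of the 26 and 7 of the other 90 rises passed. Among rises with counts after PBS, the median log2 change went from 2.43 to 1.62 for 21 myeloid transcripts and from 1.05 to 0.94 for the other 89. That covariate is the log2 of the summed CPM of both lists, in which monocyte and macrophage markers far outweigh neutrophil markers. It also contains some of the 26, so this fit cannot tell myeloid transcripts from the other rises.

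**Figure D3:**
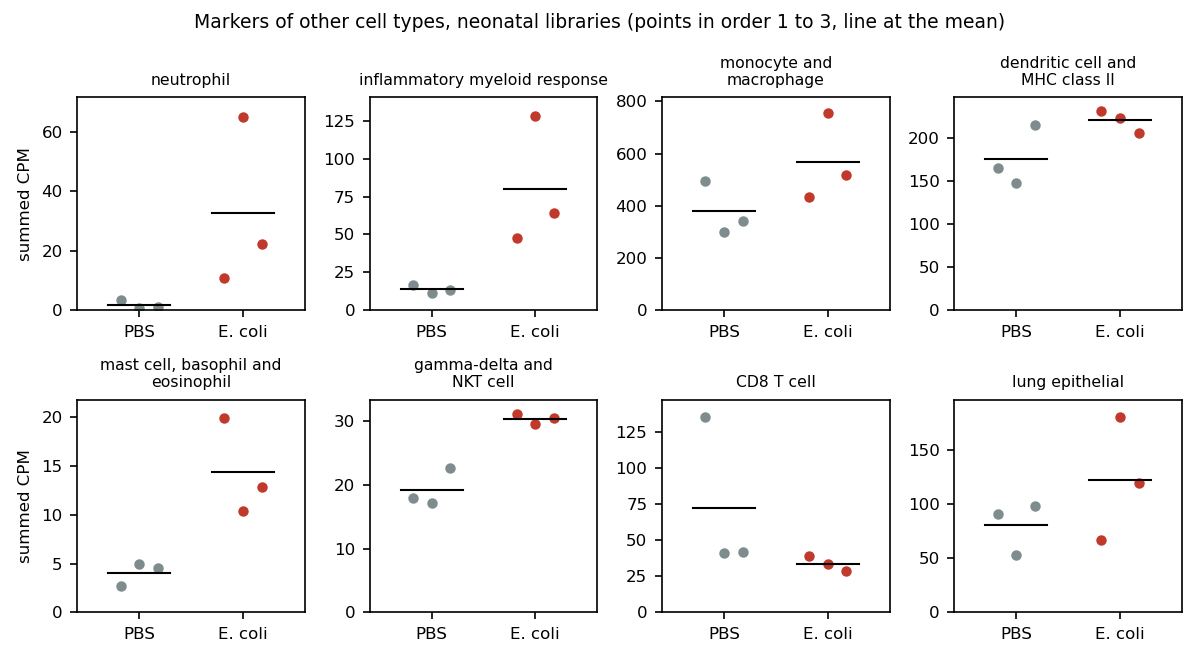
Summed CPM of 8 lists of markers of other cell types in the neonatal libraries, 1 point for each library in the order 1 to 3 and a line at the mean. Neutrophil and inflammatory myeloid sums do not overlap between groups and peak in E. coli library 2, monocyte and macrophage sums overlap, and CD8 T cell sums are highest in PBS library 1.

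The 16 falls were smaller than the rises, and those in genes of adhesion and the cell surface were 5. Itgb1 and Itga4 encode the chains of VLA-4, the integrin that binds VCAM-1 on endothelium. Itgb1 stood at 357, 357 and 335 CPM after PBS and 186, 195 and 286 CPM after E. coli (-0.66 ± 0.14, adjusted p = 0.0327). Itga4 stood at 1986, 1886 and 1773 and 1402, 1320.0 and 1444 CPM (-0.44 ± 0.07, adjusted p = 0.00705). Spn, which encodes the sialoglycoprotein CD43, stood at 849.7, 883 and 788 and 587, 547 and 627 CPM (-0.52 ± 0.08, adjusted p = 0.0031). The membrane-associated genes Ahnak, at 2013, 1765 and 1843 and 1196, 1177 and 1580.4 CPM (-0.51 ± 0.11, adjusted p = 0.0326), and Myadm, at 245, 223 and 192 and 118, 107 and 164 CPM (-0.77 ± 0.15, adjusted p = 0.0173), fell in the same libraries. In all 5, E. coli library 3 was the treated library nearest to PBS. Itgb1 there was at 81.7% of the PBS mean, against 53.1% and 55.7% in E. coli libraries 1 and 2, and Ahnak at 84.3% against 63.8% and 62.8%. Spn was the only fall that passed in every fit without 1 library. The adjusted p reached 0.0718 without E. coli library 2 for Itga4, 0.121 without E. coli library 2 for Myadm, 0.219 without E. coli library 2 for Itgb1 and 0.227 without E. coli library 2 for Ahnak. Of 25 integrin and adhesion genes 3 fell (Itgb1, Itga4 and Myadm), 1 rose (Icam1) and 21 did not pass. Foxp3, Il2ra and Ikzf2 were also nearest to PBS in E. coli library 3, as given above, while the order of E. coli libraries 1 and 2 varied between genes. The part of regulatory T cells in these falls was not tested.

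Falls in signalling and metabolism numbered 9. Erbb3, a receptor of the epidermal growth factor family, stood at 30.9, 21.8 and 16 CPM after PBS and 9.06, 7.11 and 15.5 CPM after E. coli, with E. coli library 3 just under the lowest PBS library (-1.13 ± 0.26, adjusted p = 0.0452). Tbc1d4, which controls the surface transport of glucose transporters, stood at 62.9, 69.9 and 68.8 and 44.2, 41.3 and 44.9 CPM (-0.63 ± 0.12, adjusted p = 0.0178). Sesn1, a p53 target that restrains mTORC1, stood at 188, 203 and 184 and 132, 114 and 119.6 CPM (-0.66 ± 0.13, adjusted p = 0.0186). Usp28, a deubiquitinase, stood at 88, 115 and 90.8 and 64.8, 66.9 and 63.9 CPM (-0.59 ± 0.13, adjusted p = 0.0327). With Cdkn1a, Gadd45g and Ddit3 as rises and Sesn1 and Usp28 as falls, 5 of 24 genes of p53 and growth arrest passed, in both directions. Cdc25b, a cell cycle phosphatase, changed by -0.53 ± 0.11, and Rabgap1l, Slc4a7 and Hsdl1 had changes of -0.38, -0.55 and -0.46. Slc17a8, a glutamate transporter gene near the floor, had 34 counts in the PBS libraries and 3 after E. coli, a ratio of 12.9 (4.05 to 65.6). None of these 9 passed in every fit without 1 library, and their largest adjusted p-values ran from 0.136 to 0.252. Nhsl2, at 65, 70.6 and 67.8 and 27.6, 27.9 and 53.4 CPM, and Xkrx, at 78.2, 63.8 and 61.6 and 45.1, 42.9 and 47.7 CPM, were the remaining falls, and their adjusted p reached 0.176 without E. coli library 2 and 0.108 without E. coli library 2.

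**Figure D4:**
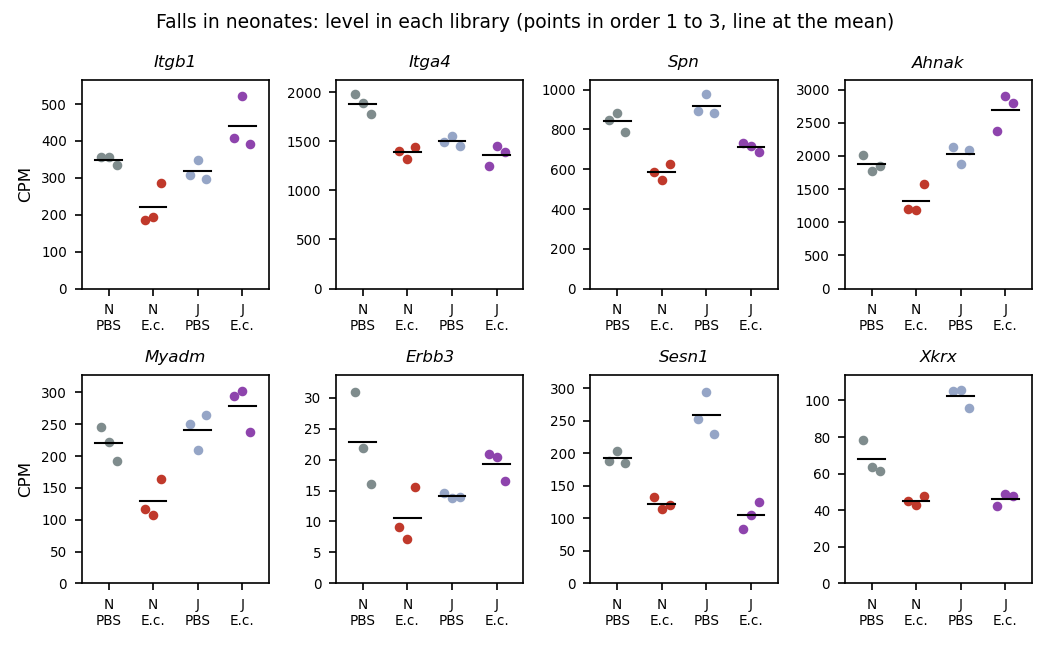
Level in CPM of 8 genes that fell in neonates, 1 point for each library and a line at the group mean, for neonates (N) and juveniles (J) after PBS and after E. coli (E.c.). For Itgb1, Ahnak, Myadm and Erbb3 the neonatal E. coli points fall below PBS, with library 3 nearest to it, while the juvenile E. coli means lie above their PBS means.

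Counts of calls in the remaining lists are read against the 1.05% of all tested genes that rose and the 0.145% that fell, and 0 calls in a list of this size is near those shares. Of 45 cell cycle genes 0 passed, and Mki67, a marker of dividing cells, stood at 2039, 1528 and 1795 CPM after PBS and 1243, 1283 and 1498 CPM after E. coli (adjusted p = 0.402). In juveniles 30 of the same 45 rose, where 15.4% of all tested genes rose and 9.42% fell. Of the 49 interferon response genes 48 rose in juveniles, and of the 24 regulatory T cell genes 20 rose. Naive T cell genes gave 1 rise (Igfbp4) and 0 falls of 20 in neonates, and 0 rises and 16 falls in juveniles. Ccr7, which directs naive cells to lymph nodes, read 605, 682 and 508 and 687, 623 and 621 CPM in neonates (adjusted p = 0.859). Since the title of the series names DNA methylation, its enzymes were read as well: Dnmt1, Dnmt3a and Tet2 had adjusted p-values of 0.877, 0.384 and 0.954. Gadd45g was the only rise among 19 genes of the DNA methylation machinery. Of 13 granzyme and cytotoxic genes 0 passed, although 12 had a fitted change above 0 (median 0.63).

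Most neonatal rises had a counterpart in juveniles. Of the 116 rises 103 were also called as rises in juveniles, which is 88.8% of the neonatal rises and 6.04% of the 1705 juvenile ones, 12 were not called and 1 (Igfbp4) fell. Of all tested genes 15.4% rose and 9.42% fell in juveniles. The median juvenile change of the 116 was 1.52 on the log2 scale, beside -0.012 for all genes tested. Of the 16 falls 6 were also called as falls in juveniles (37.5% of the neonatal falls and 0.576% of the 1042 juvenile ones), 3 rose (Ahnak, Itgb1 and Slc4a7) and 7 were not called. The neonatal and juvenile comparisons share no control library, but they share the estimate of spread of each gene, so their calls are not independent. Socs3 stood at 16.1, 11.5 and 26.1 CPM in juvenile PBS libraries 1, 2 and 3 and 91, 85.8 and 115 CPM in juvenile E. coli libraries, a change of 2.44 ± 0.23 that differed from the neonatal one by 0.06 ± 0.32 (adjusted p = 0.943). Stat3, Irf4, Batf, Lif and Myc also had differences that did not pass, from 0.08 (Myc) to 0.47 (Irf4). These p-values do not show that the responses were alike.

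The difference between the responses was tested in the same fit, as the juvenile change minus the neonatal change, and was called more positive for 559 genes (5.05%) and more negative for 215 (1.94%) of all those tested. Among the 116 rises it was called for 23: 19 rose more in juveniles and 4 rose less or not at all. Il22 showed one of the widest gaps. It stood at 0, 0.330 and 0 CPM in juveniles after PBS, from 2 counts in library 2 alone, and at 7.67, 7.6 and 6.74 CPM after E. coli, so the neonatal PBS libraries held more of it than the juvenile ones (difference 4.06 ± 0.74, adjusted p = 0.00491, a fitted value that depends on the prior count). Xcl1 reached 16.3, 12.8 and 18 CPM in juveniles (difference 2.28 ± 0.62, adjusted p = 0.0379). Cdkn1a stood at 1.44, 2.64 and 2.87 and 25.7, 22.6 and 23.4 CPM in juveniles (difference 1.93 ± 0.33, adjusted p = 0.00324), so that its neonatal PBS libraries were the higher ones as well. Frmd4b stood at 37.2, 38.6 and 42.4 and 161, 166 and 152 CPM in juveniles (difference 1.39 ± 0.15, adjusted p = 0.000612). Within the NF-kB group, Icam1, Map3k8 and Nfkbiz rose more in juveniles, with differences of 1.10, 0.98 and 0.70. Cd274, Bhlhe40, Maf, Mxd1, Odc1, Irgm2 and Rgs1 were further genes of this kind.

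The 4 remaining rises were smaller in juveniles or ran the other way. Igfbp4 stood at 418, 399 and 408 and 268, 290.0 and 309 CPM in juveniles, a change of -0.50 ± 0.09 (adjusted p = 0.000782), against its rise in neonates (difference -1.04 ± 0.12, adjusted p = 0.000618). Dbn1, an actin-binding protein gene at low level, stood at 0.149, 0.278 and 0.327 and 1.91, 1.75 and 1.73 CPM in neonates and 2.16, 0.989 and 1.91 and 1.38, 1.38 and 0.890 CPM in juveniles (difference -3.24 ± 0.72, adjusted p = 0.0141). Gpr97 stood at 1.64, 1.39 and 1.8 and 5.11, 5.36 and 3.89 CPM in neonates and 2.45, 2.14 and 3.19 and 1.38, 1.93 and 2.03 CPM in juveniles (difference -2.11 ± 0.47, adjusted p = 0.0141). Gpr18 stood at 78.5, 71.5 and 85.3 and 80.0, 81.1 and 102 CPM in juveniles, where it did not pass (difference -0.65 ± 0.18, adjusted p = 0.0422).

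Among the falls the difference was called for 9 of 16. Itgb1 stood at 308, 348 and 297 CPM in juveniles after PBS and 408, 521 and 393 CPM after E. coli, a rise of 0.47 ± 0.14 (adjusted p = 0.0244), so its direction was opposite at the 2 ages (difference 1.13 ± 0.20, adjusted p = 0.00421). Ahnak likewise rose in juveniles, from 2134, 1879.9 and 2091 to 2373, 2907 and 2798 CPM (difference 0.91 ± 0.16, adjusted p = 0.00324), as did Slc4a7 (difference 0.89 ± 0.16, adjusted p = 0.00496). Myadm, Erbb3 and Slc17a8 had positive differences without a juvenile call, of 0.97, 1.57 and 4.86. Sesn1, Hsdl1 and Xkrx fell at both ages and further in juveniles, with differences of -0.65, -0.63 and -0.56. Itga4 and Spn, the other adhesion falls, had differences that did not pass (0.30 ± 0.11 and 0.16 ± 0.11, adjusted p = 0.102 and 0.427).

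**Figure D5:**
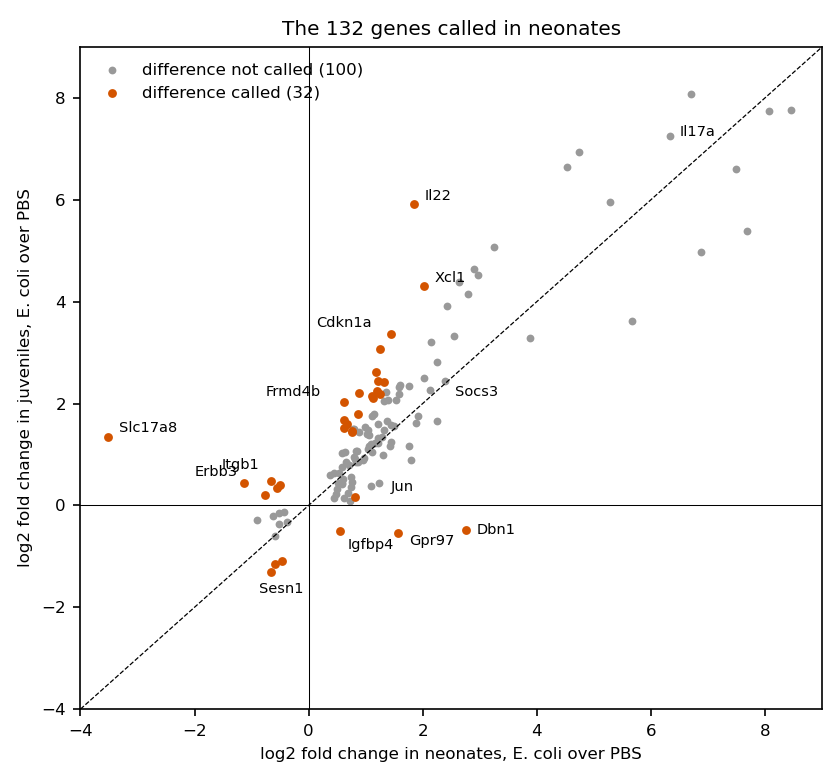
Log2 fold change of E. coli over PBS in juveniles (vertical axis) against that in neonates (horizontal axis) for the 132 genes called in neonates, with the 32 genes whose difference was called in orange and a dashed line at equal change. Igfbp4, Gpr97 and Dbn1 lie at positive neonatal and negative juvenile values, and Itgb1, Erbb3 and Slc17a8 at negative neonatal and positive juvenile values.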

How the data were processed

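The series holds 12 RNA libraries of sorted lung CD4+ T cells, 6 of them neonatal. Per the labels' protocols, cDNA was amplified with a kit that does not mark strand and sequenced as paired ends. Per the submitters' processing notes, CASAVA 1.8.4 and STAR were used, with the build GRCm38 (mm10). The values deposited by the authors are whole-number counts per gene symbol, not normalized, made with SeqMonk as the table is named, and no source used here names its version, annotation or strand setting. Overlapping and antisense genes can therefore share reads. The DNA methylation data were not analysed here, and a few genes counted among the calls and lists are not reported by name.

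Genes were filtered with filterByExpr (minimum count 10, minimum total 15), which left 11062 of 19434 symbols. Changes were tested by the quasi-likelihood F test of edgeR 4.0.16 in R 4.3.3 with TMM scaling on the group means of all 12 libraries, which share 1 estimate of spread, with contrasts for each age and for their difference and Benjamini-Hochberg adjustment (threshold 0.05). All adjusted p-values are from this fit unless another is named. CPM were computed by edgeR over the tested genes with the TMM factor. The script was tested on simulated data. No 2 neonatal libraries of a group agreed within sampling noise (chi-square over degrees of freedom 4.00 to 5.05). Separate pools are stated by the labels, and whether they come from separate litters is not, so p-values measure the spread between pools.

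Genes named are those called, grouped by known role after their values were seen, with members of 30 program and 15 marker lists (912 of 928 members matched, 7 by an older symbol) and chosen genes of T cell identity and DNA methylation. Per-library levels were given for the 20 largest rises and 10 largest falls of average log2 CPM of at least 3, apart from a few given as changes, and for list members of smallest p. The members and lists were chosen with earlier results of these data known. Symbols were located in GENCODE M21 (17841 matched). Promoters are from RefSeq. Alternatives were scaling by RLE or the upper quartile, voom with sample weights (limma 3.58.1), DESeq2 1.42.0, no filter, a stricter filter, a replicate block, the neonatal libraries alone, 2 marker covariates and each library left out in turn. Figures used Python 3.11.15 and matplotlib 3.10.9.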

Additional observations from a re-analysis of the deposited data

Results flagged for a closer look

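For 32 of the 132 genes called in neonates, the response differed between the ages in the interaction test of edgeR (adjusted p under 0.05). Values, given for the genes named here, are the juvenile minus the neonatal log2 change. Among rises, the change was larger in juveniles for Il22 (4.06), Xcl1 (2.28), Cdkn1a (1.93), Ccrl2 (1.44), Frmd4b (1.39), Cd274 (1.34), Bhlhe40 (1.23), Icam1 (1.10) and Csf2rb2 (1.05). It was also larger for Mxd1 (1.05), Odc1 (1.05), Map3k8 (0.98), Rgs1 (0.94), Litaf (0.93), Irgm2 (0.92), Maf (0.89), Nfkbiz (0.70) and Samsn1 (0.69). It was more negative in juveniles for Dbn1 (-3.24), Gpr97 (-2.11), Igfbp4 (-1.04) and Gpr18 (-0.65).

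Among falls, the juvenile change was more positive for Slc17a8 (4.86), Erbb3 (1.57), Itgb1 (1.13), Myadm (0.97), Ahnak (0.91) and Slc4a7 (0.89). It was more negative for Sesn1 (-0.65), Hsdl1 (-0.63) and Xkrx (-0.56). The fitted values of Il22, Slc17a8 and Dbn1 rest on groups with few counts and depend on the prior count.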

How the results depend on the processing

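RLE scaling (116 rises and 16 falls), upper-quartile scaling (120 and 17), no filter (161 and 20), a stricter filter of 10 counts in each library of some group (116 and 16) and the immature T cell covariate (115 and 16) left both counts within 1.5 times. Satb1, also a member of the naive T cell list, made up 65.7% of the immature T cell sum, which overlapped between groups and did not follow Rag1. That covariate therefore cannot show how the calls depend on immature T cells. DESeq2 called 188 and 50, voom with sample weights 215 and 97, the neonatal libraries alone 230 and 90, and the neutrophil, monocyte and macrophage covariate 7 and 0. Leaving out 1 neonatal library gave 52 to 101 rises and 1 to 25 falls, and leaving out PBS library 1 with E. coli library 2, chosen after seeing the data, gave 9 and 0. The cause was not tested. For the difference of responses, voom called 1376 genes more positive and 924 more negative in juveniles. Leaving out 1 library gave 266 to 1006 and 70 to 547, with the lowest counts without juvenile E. coli library 1 (266) and library 2 (70) and the highest without juvenile PBS library 2. Both counts also moved by over 1.5 times without neonatal PBS library 1 (299 and 109) or 3 (329 and 121), neonatal E. coli library 1 (277 and 95) or 2 (309 and 124), and 1 of them did without juvenile PBS library 1 (356 more positive) and juvenile E. coli library 3 (402 more negative). With upper-quartile scaling the difference was called for 476 and 283 genes, a split of directions that moved while the median of all genes moved to -0.076. With the replicate block, 118 rises (98 of them shared with the fit without it) and 16 falls (12 shared) were called, and 643 and 238 differences. Deviations of same-numbered libraries correlated at -0.091, 0.048 and 0.223, and not every library correlated best with its own number, so the numbers were not treated as pairs. For single genes, 1896 alternatives left the call as it was, 640 lost it, 7 gained it and 0 changed the sign of a gene called in either fit. Sign changes of genes called in neither fit were not counted apart and fall within the 1896. In the fit of the neonatal libraries alone Il17a, Lcn2, Inhba, Ccl8, Cxcr2 and Slc17a8 were below the filter and had no test, and the neonatal log2 change of Erbb3 did not pass (adjusted p = 0.0503). Depth limits the genes at 0 to 3 counts after PBS, whose folds are bounds or wide intervals.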

Other observations

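Beyond the genes called in neonates, the difference between the responses was read among genes called at either age with an average log2 CPM from 3 upwards. The 10 most positive differences ran from 2.79 (Gbp10) to 5.05 (Cxcl9), and the 10 most negative from -1.85 (Nkd2) to -1.29 (Cxcr4). Cxcl9, a chemokine induced by interferon-gamma, stood at 0.149, 0.694 and 0.490 CPM in neonates after PBS and 1.79, 1.12 and 2.59 CPM after E. coli, and at 0.144, 0 and 0.478 and 34.5, 37.2 and 16.1 CPM in juveniles (difference 5.05 ± 1.18, adjusted p = 0.0183). Kdr, an endothelial receptor gene and the next in size, stood at 5.5, 2.64 and 8.82 and 2.55, 3.86 and 10.5 CPM in neonates and 1.73, 1.98 and 1.59 and 29.8, 21.3 and 10.4 CPM in juveniles (difference 3.53 ± 0.76, adjusted p = 0.0127). In the other direction, Nkd2, a gene of Wnt signalling, stood at 12.3, 14 and 21.2 and 8.68, 12.2 and 8.06 CPM in neonates and 26.8, 12.5 and 34.1 and 4.02, 3.73 and 4.7 CPM in juveniles (difference -1.85 ± 0.45, adjusted p = 0.0235). The tetraspanin gene Tspan9 stood at 18.4, 11 and 21.2 and 15.1, 12.6 and 19.4 CPM in neonates and 27.5, 19.9 and 32.8 and 7.04, 8.42 and 8.9 CPM in juveniles (difference -1.62 ± 0.35, adjusted p = 0.0116).

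Transcripts of immature T cells varied widely among the neonatal pools. Arpp21, a thymocyte gene, read 39.9, 20.4 and 13.4 CPM after PBS and 0.766, 5.73 and 2.02 CPM after E. coli, without overlap, and did not pass (adjusted p = 0.0596). Rag1 and Cd8a were likewise lower in every E. coli library (99.9, 21.5 and 17.6 and 14.7, 17.5 and 10.8 CPM for Cd8a), with PBS library 1 far above the others, and did not pass (adjusted p = 0.173 and 0.317).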
